A study of Mus musculus with 20 samples.

Results

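Immediate-early genes are the first genes that neurons transcribe after synaptic activity, within minutes and without new protein synthesis, when calcium entry and the MAP kinase cascade activate factors such as CREB and SRF that already sit at their promoters. Most of their products are transcription factors, which then drive slower sets of genes, while *Arc* encodes a protein of the synapse and *Dusp1* a phosphatase that switches the MAP kinases off. Their RNAs are short-lived, so in brain tissue they are widely used as a record of recent activity. The 10 genes described are *Fos*, *Fosb*, *Junb*, *Egr1*, *Egr2*, *Egr4*, *Arc*, *Npas4*, *Nr4a1* and *Dusp1*. They were taken by gene name from the 17211 genes of the deposited expression table, and all 10 were listed, each with reads in every brain.

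RNA-Seq was performed on brains of 10 C57BL/6 and 10 *Winnie* mice, aged 14 weeks in the methods of the study, with 5 samples labelled female and 5 labelled male in each genotype. *Winnie* mice carry a missense mutation of *Muc2*, the main mucin gene of the intestine, and develop spontaneous chronic colitis, while the C57BL/6 mice came from the same breeding colony. Mice were killed with pentobarbital, an anaesthetic, and the brains were frozen at once. The study's text gives 8 C57BL/6 and 6 *Winnie* mice for this tissue and does not say which, so all 20 samples were used, each from 1 mouse by the labels. Libraries held 16540303 to 23923769 reads, so 1 read was worth 0.0418 to 0.0605 CPM, the unit of the deposited values, in which the reads of every sample are scaled to the same total. The sex in the label went against the RNA (*Xist* and *Ddx3y*) in 9 of 10 C57BL/6 samples and in 0 of 10 *Winnie* samples. Markers of neurons and of glia were abundant in every library, as the label brain requires, with summed general neuron markers between 6590 and 7264 CPM.

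The DNA just before the start of 5 of these genes is shown, with letters that match the elements of CREB and SRF marked. Any part of these matches in the RNA levels was not tested. The 5 genes are a selection, as *Dusp1* also rose with *Fos* in both genotypes. The sequences are the 250 bases before a RefSeq transcript start on GRCm38.p6, at chr12:85473640-85473889 on the plus strand for *Fos*, chr8:84978749-84978998 on the minus strand for *Junb*, chr10:67537619-67537868 on the plus strand for *Egr2*, chr6:85513590-85513839 on the minus strand for *Egr4* and chr15:101266596-101266845 on the plus strand for *Nr4a1*. None of these stretches overlaps an exon of GENCODE M21. Capitals mark the letters TGACG or, on the other strand, CGTCA, which are the short core of the cAMP response element (CRE) that CREB binds, and in *Egr2* also a CArG box, the element that SRF binds.
Fos: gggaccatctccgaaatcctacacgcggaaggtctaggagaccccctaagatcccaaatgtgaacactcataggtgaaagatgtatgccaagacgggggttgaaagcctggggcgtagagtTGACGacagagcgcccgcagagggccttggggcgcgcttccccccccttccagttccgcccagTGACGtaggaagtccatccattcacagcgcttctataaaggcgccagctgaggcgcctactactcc
Junb: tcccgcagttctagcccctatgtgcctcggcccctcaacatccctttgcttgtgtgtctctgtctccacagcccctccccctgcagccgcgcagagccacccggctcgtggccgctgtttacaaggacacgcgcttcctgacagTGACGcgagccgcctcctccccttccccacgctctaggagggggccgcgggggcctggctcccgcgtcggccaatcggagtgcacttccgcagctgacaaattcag
Egr2: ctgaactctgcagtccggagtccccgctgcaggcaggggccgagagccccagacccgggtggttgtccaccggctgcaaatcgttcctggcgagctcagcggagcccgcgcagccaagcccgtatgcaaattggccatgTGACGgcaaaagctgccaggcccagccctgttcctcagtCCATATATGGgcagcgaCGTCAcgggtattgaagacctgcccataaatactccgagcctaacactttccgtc
Egr4: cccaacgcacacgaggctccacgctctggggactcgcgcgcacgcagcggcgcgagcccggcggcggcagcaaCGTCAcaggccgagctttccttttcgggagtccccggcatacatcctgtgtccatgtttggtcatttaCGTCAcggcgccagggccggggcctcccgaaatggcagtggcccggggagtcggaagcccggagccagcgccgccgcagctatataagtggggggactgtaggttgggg
Nr4a1: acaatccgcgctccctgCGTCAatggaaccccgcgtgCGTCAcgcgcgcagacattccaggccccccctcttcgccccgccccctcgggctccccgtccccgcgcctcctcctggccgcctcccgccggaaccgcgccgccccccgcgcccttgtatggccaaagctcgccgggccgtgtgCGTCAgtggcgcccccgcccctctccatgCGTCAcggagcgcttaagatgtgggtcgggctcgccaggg

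RefSeq windows from 250 bases before to 50 bases after a transcript start were searched for 8 of the 10 genes. No window of *Arc* was at hand. *Egr1* was left out of the search, so nothing is said here of elements near its start. The CRE core was found in at least 1 window of each of the 8 genes and in 20.8% of 32851 windows of mouse genes. A count by gene and a share by window are unlike units: the 8 genes had 12 windows, and not every window of *Egr2* held the core. *Nr4a1* held 4 copies, the nearest 40 bases before the start, and *Fos* held 2, at 129 and 66 bases before it. The complete CRE, TGACGTCA, was found in *Dusp1* alone among the 8, at 143 bases before the start, and in 1.79% of all windows. A CArG box, searched on both strands, was found in windows of *Egr2* alone among the 8, 72 bases before the start shown above, and in 1.63% of all windows. *Npas4*, a neuron-specific factor induced by calcium, held 2 CRE cores, at 179 and 169 bases before the start. The binding site of the EGR factors, GCGTGGGCG or CGCCCACGC, was not found in any of these windows and was found in 0.612% of all windows. Such matches are descriptions of the letters in these windows and not of binding. DNA outside the windows was not searched, so a gene without a match here may hold one farther away.

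The levels of the 10 genes differed widely. Per kilobase of annotated exon, *Egr1*, a zinc finger factor, was the most abundant, at 105 ± 52.2 CPM per kb in C57BL/6 brains and 96.9 ± 31.1 in *Winnie* brains (SD, n = 10 each). *Arc* followed at 65.8 ± 48.3 and 49.6 ± 19.3 CPM per kb, then *Nr4a1*, an orphan nuclear receptor, at 28.6 ± 18.9 and 28.0 ± 9.12. *Junb*, *Egr4*, *Fos*, *Dusp1*, *Npas4* and *Fosb* came next in this order, and *Egr2* was lowest at 3.09 ± 2.70 and 2.78 ± 1.39 CPM per kb. Within single brains, *Egr1* was above *Arc*, *Arc* above *Nr4a1*, and *Egr4* above *Fos* in 20 of 20 brains. The neighbours *Nr4a1* and *Junb*, and *Fos* and *Dusp1*, kept their order in 14 of 20 brains, and *Npas4* was above *Fosb* in 16 of 20. These levels take all annotated exons of a gene as its length, and *Nr4a1* and *Dusp1* have distant exons that may not be used in brain. The annotated *Junb* gene shares 351 bases with *Prdx2* on the other strand and *Dusp1* shares 640 bases with *Ergic1*. The strandedness of the counting is not given in the sources used here, so reads of these overlaps cannot be told apart. *Prdx2* ranged only from 90.6 to 119 CPM and *Ergic1* from 132 to 162 CPM over the 20 brains.

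*Fos*, which forms the AP-1 factor with Jun proteins, varied 5.82-fold between C57BL/6 brains. In replicates 1 to 10 its values were 53.7, 13.7, 59.6, 11.2, 65.0, 22.5, 21.6, 17.4, 17.1 and 30.7 CPM. Replicates 1, 3 and 5 stood above the other 7, with a gap between 30.7 and 53.7 CPM. In *Winnie* brains *Fos* was 36.2, 41.6, 42.8, 38.2, 29.7, 8.67, 20.2, 14.2, 24.2 and 28.7 CPM in replicates 1 to 10, a 4.93-fold range. The lowest value of all 20 brains was that of *Winnie* replicate 6 and the 3 highest were C57BL/6, and 9 of the 10 *Winnie* values lay inside the C57BL/6 range.

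The same brains were high or low for most of the 10 genes. C57BL/6 replicates 3 and 5 were among the 3 highest of their genotype for 10 of 10 genes, and replicate 1 for 9 of 10. Replicate 2 lay below the C57BL/6 median for all 10 genes, and replicate 4 was above it for 1 gene, *Fosb*. Among *Winnie* brains, replicate 3 was in the top 3 for 10 of 10 genes, and replicates 6 and 8 were below the genotype median for all 10. The labels of C57BL/6 replicates 1, 3 and 5 carry the numbers 5, 3 and 1 after an S. This number is called the library number here, and the labels do not say what it stands for. These replicates are labelled female, against their RNA. The part of this number or of the labels in these values was not tested. In bulk tissue, fewer active cells and less RNA per cell cannot be told apart.

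**Figure D1:**
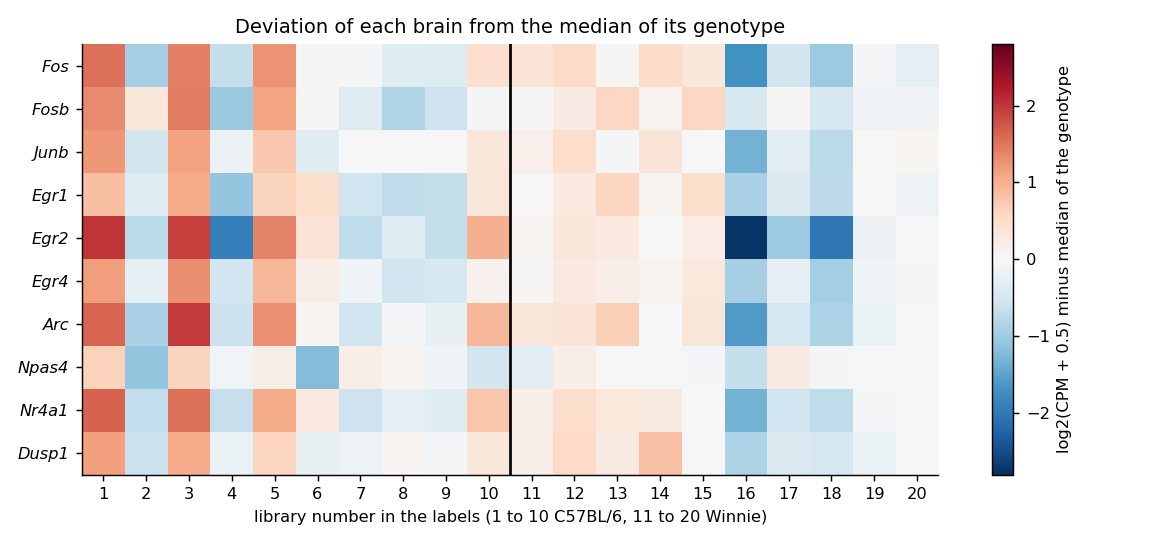
Each cell shows log2(CPM + 0.5) of 1 gene (rows) in 1 brain (columns, by library number) minus the median of that gene in the 10 brains of the genotype, red above and blue below it. Whole columns share a colour: C57BL/6 libraries 1, 3 and 5 are above the median for all 10 genes, and *Winnie* libraries 16 and 18 are below it for all 10.

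Spread between brains was large against that of other genes. The SD of log2(CPM + 0.5) had a median over the 10 genes of 0.824 in C57BL/6 brains and 0.521 in *Winnie* brains, while the median over the 11976 genes with a mean of at least 5 CPM was 0.118 and 0.113. In C57BL/6 brains the SD ran from 0.572 (*Dusp1*) to 1.31 (*Egr2*), and the 10 genes ranked from 8 to 53 of 11976. In *Winnie* brains it ran from 0.260 (*Npas4*) to 1.07 (*Egr2*), with ranks from 11 (*Egr2*) to 370 (*Npas4*). Counting error alone gives an SD of 0.0168 (*Egr1*) to 0.155 (*Egr2*), below the SD between brains for each gene in both genotypes. The counting SD came nearest to the spread for *Npas4* in *Winnie* brains, at 0.0780 against 0.260.

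*Egr2*, a zinc finger factor that is scarce at rest, had the widest range. Its C57BL/6 values in replicates 1 to 10 were 16.96, 1.27, 24.6, 3.46, 26.2, 8.06, 3.55, 4.66, 3.68 and 12.7 CPM, a 20.5-fold range, with 25 reads behind the lowest value. Its *Winnie* values were 13.1, 11.4, 14.1, 12.01, 13.7, 1.25, 5.31, 2.46, 11.2 and 9.97 CPM, an 11.3-fold range. Low *Egr2* was thus found in both genotypes, in the brains that were also low in *Fos*.

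*Arc*, whose RNA travels to active dendrites, ran from 66.7 to 490 CPM in C57BL/6 brains (median 125) and from 50.5 to 243 CPM in *Winnie* brains (median 154). *Nr4a1* ran from 42.5 to 218 CPM (median 70.0) and from 40.4 to 144 CPM (median 102), and *Egr1* from 195 to 860 CPM (median 428) and from 232 to 663 CPM (median 433). The top of the range was C57BL/6 for all 3 genes, and the medians of *Arc*, *Nr4a1* and *Egr1* were higher in *Winnie* brains. *Egr4* ran from 20.9 to 77.5 CPM (median 31.4) in C57BL/6 and from 19.9 to 47.5 CPM (median 38.8) in *Winnie*. Of the AP-1 subunits, *Fosb* ran from 9.28 to 54.6 CPM (median 19.6) and from 16.9 to 35.0 CPM (median 23.3), and *Junb* from 31.7 to 106 CPM (median 45.4) and from 23.3 to 82.9 CPM (median 58.8). *Dusp1* ran from 16.8 to 57.8 CPM (median 25.9) and from 16.4 to 54.3 CPM (median 30.4).

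**Figure D2:**
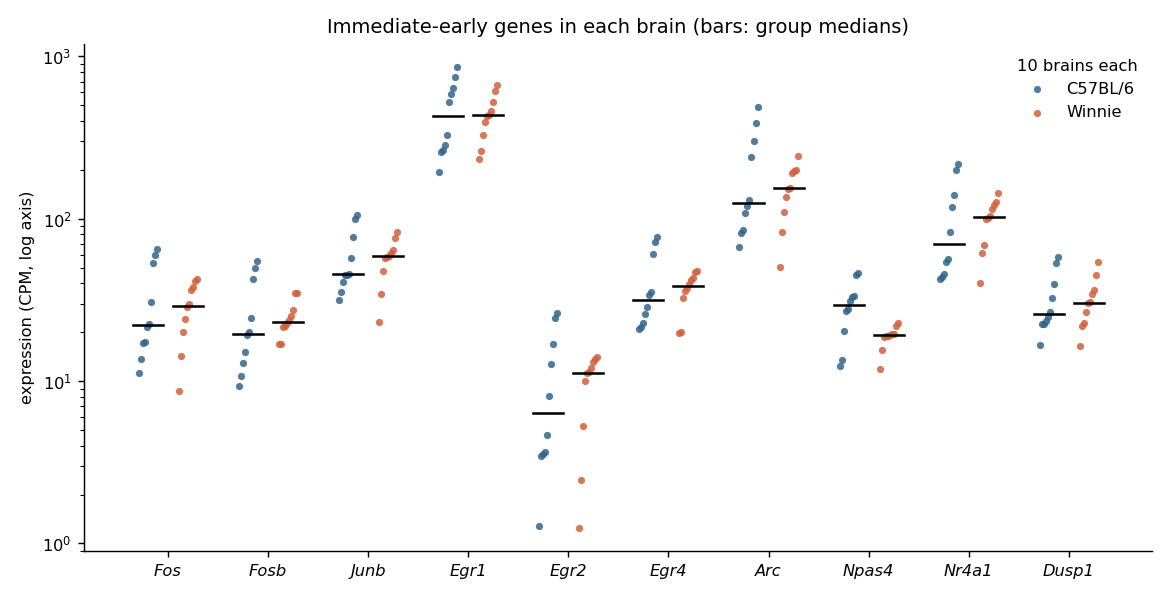
Expression in CPM (vertical log axis) of the 10 genes, with 1 point for each of 10 C57BL/6 (blue) and 10 *Winnie* (orange) brains and a bar at each group median. The groups overlap for every gene, and the highest brain is C57BL/6 in all 10.

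*Npas4* had the narrowest spread of the 10 genes in *Winnie* brains. Its values there were 18.7, 19.4, 21.9, 15.6, 19.4, 11.8, 22.8, 18.9, 19.1 and 19.4 CPM in replicates 1 to 10, so that all but replicates 6 and 7 lay between 15.6 and 21.9 CPM. In C57BL/6 brains they were 32.9, 27.9, 45.3, 13.4, 46.1, 12.3, 33.5, 31.0, 26.9 and 20.4 CPM. C57BL/6 replicates 4 and 6 were the lowest there and replicates 3 and 5 the highest.

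The spread of single genes was compared between genotypes by the mean absolute deviation from the group median of log2(CPM + 0.5), with a two-sided permutation test (100000 resamples, n = 10 each), unadjusted for the 10 genes. It was smaller in *Winnie* brains for all 10 genes. These genes moved together from brain to brain, so they are not 10 separate results, and the share over all genes was not counted. The difference passed p = 0.05 for *Fosb* (0.264 against 0.707, p = 0.0238), *Egr1* (0.365 against 0.668, p = 0.0320) and *Npas4* (0.151 against 0.473, p = 0.0462). With limma on the same deviations over the 11976 genes, an alternative added after seeing the data, *Fosb* (p = 0.0300) and *Npas4* (p = 0.00757) were under an unadjusted p of 0.05, against a background of 2.7% of genes, and 0 of the 10 genes and 0 genes in all passed after adjustment, where 323 genes with a smaller and 192 with a larger spread in *Winnie* had an unadjusted p under 0.05. The count of 3 genes rests on single libraries: it was 0 without C57BL/6 replicate 3, 1 without C57BL/6 replicate 4, 5, 6 or 10 or *Winnie* replicate 2, 9 or 10, and 5 without *Winnie* replicate 6.

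**Figure D3:**
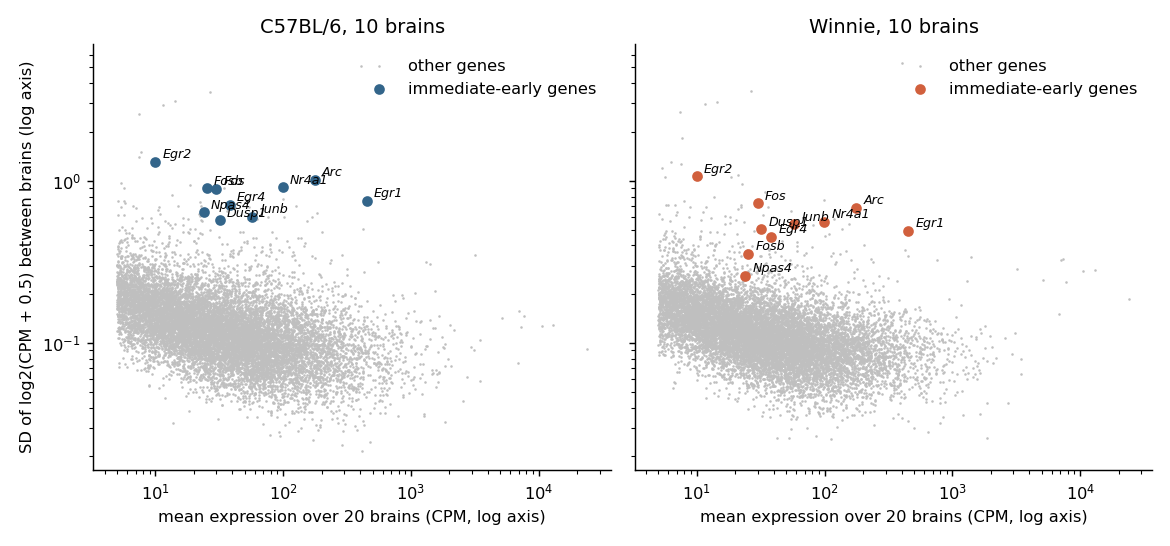
SD of log2(CPM + 0.5) between 10 brains (vertical log axis) against mean expression over 20 brains in CPM (horizontal log axis), for C57BL/6 (left) and *Winnie* (right) brains, with 1 grey point for each other gene with a mean of at least 5 CPM. The 10 immediate-early genes lie above most grey points in both panels, from 0.572 to 1.31 in C57BL/6 and from 0.260 to 1.07 in *Winnie*.

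Covariation was measured against *Fos*, with genotype as a term, by limma over the 17210 other genes (FDR is the Benjamini-Hochberg adjusted p, with a call under 0.05). Over 20 brains, 8 of the 9 other immediate-early genes rose with *Fos*, all but *Npas4*, against a background of 0.506% of genes. A slope gives the log2 change of a gene per 1 log2 unit of *Fos*. *Egr2* changed more steeply than *Fos*, with a slope of 1.38 ± 0.119 (SE; FDR 1.47e-06), and *Arc* in step with it, at 0.999 ± 0.0872 (FDR 2.62e-06). *Nr4a1* had a slope of 0.88 ± 0.0679, and *Egr4*, *Egr1*, *Junb*, *Fosb* and *Dusp1* lay between 0.61 and 0.68. *Npas4* had a slope of 0.35 ± 0.117 (p = 0.00854, FDR 0.292). *Fosb* (FDR 0.0246) lost the call without C57BL/6 replicate 1 (FDR 0.0749), 2 (0.0663), 3 (0.0978) or 5 (0.0901) or *Winnie* replicate 8 (0.0508), and the other 7 genes kept it with each sample left out. With labelled sex in the fit *Fosb* lost the call (FDR 0.280). The label goes against the RNA in 9 of 10 C57BL/6 samples, so this term is not an adjustment for sex. Without the 2 brains of each genotype farthest from its *Fos* median, *Fosb* (FDR 0.380) and *Egr1* (FDR 0.191) lost the call. This left 6 of 9, against 39 of all 17210 genes that rose.

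Within C57BL/6 brains 6 of 9 genes rose with *Fos* (background 0.203%), and within *Winnie* brains 5 of 9 (background 0.238%). *Junb*, *Egr2*, *Egr4*, *Nr4a1* and *Dusp1* passed in both genotypes, *Arc* passed in C57BL/6 (FDR 0.00313) and had an FDR of 0.0513 in *Winnie*, and *Fosb*, *Egr1* and *Npas4* passed in neither. For *Junb* the correlation with *Fos* was r = 0.946 (rho = 0.830, permutation p 9e-05 and 0.00463) in C57BL/6 and r = 0.970 (rho = 0.915, permutation p 1e-05, the smallest that the permutations can give, and 0.0004) in *Winnie*. For *Egr2* it was r = 0.932 (rho = 0.952) and r = 0.949 (rho = 0.867), for *Arc* r = 0.961 (rho = 0.952) and r = 0.913 (rho = 0.818), and for *Nr4a1* r = 0.959 (rho = 0.964) and r = 0.958 (rho = 0.915). The 12 permutation p of *Egr2*, *Arc* and *Nr4a1* lay between 2e-05 and 0.00595, over 18 relations of 9 genes in each genotype. *Npas4* had r = 0.625 (rho = 0.6, permutation p 0.0533 and 0.0732) in C57BL/6 and r = 0.552 (rho = 0.297, permutation p 0.0981 and 0.406) in *Winnie*.

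The relation rested in part on the brains at the ends. Without the 2 brains farthest from the *Fos* median, replicates 3 and 5 in C57BL/6 and replicates 6 and 8 in *Winnie*, r was 0.886 and 0.853 for *Junb*, 0.927 and 0.601 for *Arc*, 0.910 and 0.827 for *Nr4a1* and 0.311 and -0.36 for *Npas4*. By limma 2 and 0 of 9 genes then kept an FDR under 0.05, against 14 and 7 of all 17210 genes that rose. In *Winnie* 5 of 9 had an unadjusted p under 0.05. In the 7 C57BL/6 brains left without replicates 1, 3 and 5, a choice made after seeing the data, r was still 0.865 for *Arc*, 0.843 for *Nr4a1*, 0.804 for *Dusp1* and 0.787 for *Egr2*, but 0.166 for *Fosb* and 0.0619 for *Npas4*. There 0 of 9 genes and 0 of all genes passed in limma, and 6 of 9 had an unadjusted p under 0.05. The share of all genes with an unadjusted p under 0.05 was not counted in these smaller sets. In *Winnie* brains the count was 3 without replicate 6 and 4 without replicate 8, against 19 and 14 of all genes. The r of *Npas4* with *Fos* in *Winnie* brains fell to -0.18 without replicate 6.

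**Figure D4:**
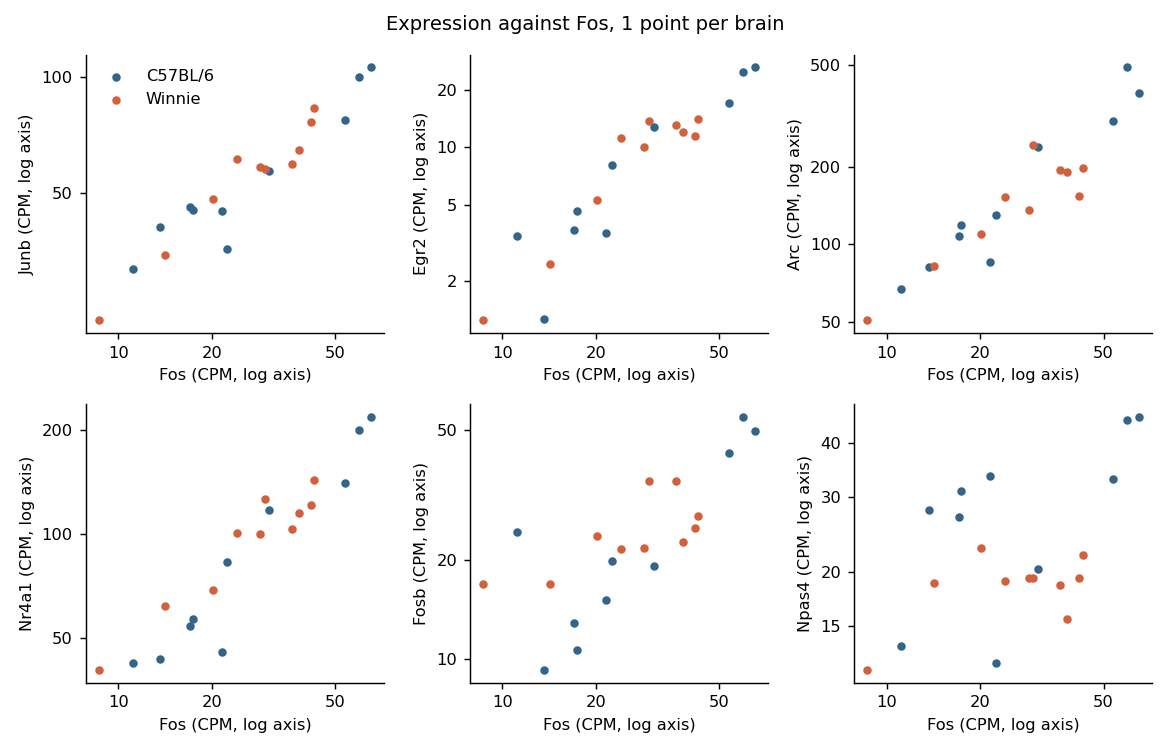
Expression of 6 genes against *Fos*, both in CPM on log axes, with 1 point for each C57BL/6 (blue) or *Winnie* (orange) brain. *Junb*, *Egr2*, *Arc* and *Nr4a1* follow *Fos* closely in both genotypes (r from 0.913 to 0.970 on log2 values), while the *Winnie* points of *Npas4* form a nearly flat row apart from replicate 6, the lowest.

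Taken pair by pair, all 45 correlations among the 10 genes were positive in C57BL/6 brains (median r 0.882, from 0.207 for *Egr1* with *Npas4* to 0.990 for *Junb* with *Dusp1*) and in *Winnie* brains (median 0.888, from 0.464 for *Fosb* with *Npas4* to 0.970 for *Fos* with *Junb*). These values are a description over 10 brains, and the genes of a pair were read from the same libraries. The 9 pairs with *Npas4* had a median r of 0.483 and 0.548, against 0.923 and 0.911 for the 36 pairs without it. In the 7 C57BL/6 brains without replicates 1, 3 and 5, 37 of 45 pairs were positive (median 0.591), *Arc* with *Nr4a1* was highest at 0.960, and the pairs with *Npas4* had a median of -0.33.

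The slopes on *Fos* were compared between genotypes in a fit with a slope for each, also added after seeing the data. No immediate-early gene passed an FDR under 0.05, with 0 of 9 called against 1 gene of all, and 1332 genes had an unadjusted p under 0.05. The slope of *Fosb* was 0.35 in *Winnie* and 0.84 in C57BL/6, a difference of -0.49 ± 0.242 (SE; p = 0.0612, FDR 0.671), and that of *Nr4a1* differed by -0.24 ± 0.129 (p = 0.0815, FDR 0.705). *Npas4* differed by -0.25 ± 0.239 (p = 0.316, FDR 0.876).

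Other genes of the activity response were taken from lists of textbook members, chosen with earlier results of these data known. Of 38 other rapid immediate-early genes, 19 rose with *Fos* over 20 brains and 0 fell (median r 0.693, against -0.04 over all genes). By their correlation after removal of the genotype means, over 20 brains, the genes most like *Fos* outside the 10 were *Tiparp* (0.943), the kinase gene *Sik1* (0.932), *Dusp6* (0.932), a phosphatase of ERK, *Ier2* (0.912), *1700016P03Rik* (0.908), *Trib1* (0.899), *Cyr61* (0.890), *Otud1* (0.890), the nuclear receptor gene *Nr4a3* (0.884) and *Irf2bpl* (0.878). The lowest were *Hnrnpd* (-0.81), *Pla1a* (-0.79) and *Cacnb2* (-0.78). *Tiparp* had 13.1 to 28.6 CPM in C57BL/6 and 14.04 to 26.9 CPM in *Winnie*, with a slope of 0.42 ± 0.0360 (FDR 1.26e-08).

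Lists of slower and upstream genes were counted in the same fit. Of 27 late-response genes, such as those of growth factors and peptides, 1 rose with *Fos*: *Gpr3*, a receptor gene, with a slope of 0.48 ± 0.0757 (FDR 0.00133). Of 31 activity-regulated transcription factors and kinases, among them *Creb1* and *Srf*, 0 passed in limma and 3 had an unadjusted p under 0.05. Of 15 genes of dual-specificity phosphatases and MAP kinase feedback 4 rose, *Dusp6* (slope 0.42), *Dusp5* (0.46), *Spry4* (0.29) and *Dusp4* (0.30), and of 9 partners and corepressors 1 rose, *Nab2* (0.28 ± 0.0568, FDR 0.0179), whose product binds and represses EGR factors. Of 14 glucocorticoid-induced genes 2 rose, *Per1* (0.41 ± 0.0620), which is also among the 38, and *Pdk4* (0.24 ± 0.0454).

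Markers of brain cell types did not pass with *Fos*: 0 of 77 genes on 11 lists in limma, where 4 had an unadjusted p under 0.05. Of all 17210 genes 87 rose and 13 fell, so 0 of 77 is near the share over all genes. The summed levels of the markers still varied. Striatal markers ran from 358 to 1254 CPM in C57BL/6 and from 350 to 1239 CPM in *Winnie*, with r = 0.122 and 0.470 with *Fos* (permutation p 0.730 and 0.173). In *Winnie* brains the summed cerebellar markers (131 to 189 CPM; 2 of 9 genes at 0 in a library; r = 0.708, rho = 0.552, permutation p 0.0210 and 0.105) and choroid plexus markers (496 to 1013 CPM; r = 0.670, rho = 0.345, permutation p 0.0328 and 0.333) ran with *Fos*, and blood markers (40.6 to 150 CPM; r = -0.67, rho = -0.76, permutation p 0.0344 and 0.0156) against it, unadjusted over 22 relations. Without the 2 farthest brains these r were 0.191, 0.303 and -0.83. Other lists moved on this step too. In *Winnie* brains r went from -0.41 to -0.77 for cortical and hippocampal excitatory neuron markers. It went from 0.340 to 0.624 for thalamic and midbrain neuron markers. The part of the marker levels in the *Fos* relation was not tested.

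*Winnie* and C57BL/6 brains did not differ past the threshold in any of the 10 genes, a count near the share over all genes. With limma on log2(CPM + 0.5) and FDR under 0.05, 0 of 10 were called against a background of 2.52% of all genes (434 of 17211), and at the threshold of the study's methods, FDR under 0.001 and a fold change of at least 1.5, 0 of 10 were past it against 0%. *Npas4* was the only one of the 10 with an unadjusted p under 0.05. Its level was 29.0 ± 11.5 CPM in C57BL/6 and 18.7 ± 3.09 CPM in *Winnie* (SD, n = 10 each), a log2 fold change of -0.52 ± 0.217 (SE; 95% interval -0.98 to -0.07, p = 0.0270, FDR 0.212 by limma). All 10 *Winnie* values lay below the C57BL/6 median of 29.4 CPM, 1 of them below the lowest C57BL/6 value. DESeq2 on the recovered reads, which called 7.04% of the 13874 genes it gave an FDR, called it (log2 fold change -0.63, FDR 0.0430) and edgeR did not (-0.63, FDR 0.107), and without any 1 sample the limma value stayed between -0.64 and -0.44 with no call.

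For the other 9 genes the fold changes were small against their intervals, and the sign turned for 8 of them, all but *Arc*, with a sample left out, in edgeR and DESeq2 or with quantile normalization. In edgeR and DESeq2 all 10 genes had a log2 fold change below 0, with a median of -0.13 and -0.12 against -0.0077 in limma, and none but *Npas4* in DESeq2 was called. The median over all genes was 0.0012 in edgeR and -0.0016 in DESeq2. Mean CPM was lower in *Winnie* for each of the 10 genes, which moved together from brain to brain. *Arc* was 201 ± 148 CPM in C57BL/6 and 152 ± 58.9 CPM in *Winnie* (log2 fold change -0.20, 95% interval -1.01 to 0.61, FDR 0.841), and its log2 fold change was -0.41 in both edgeR and DESeq2 (FDR 0.625 and 0.583) and -0.34 to -0.02 with each sample left out, nearest to 0 without C57BL/6 replicate 3. *Fos* was 31.2 ± 20.4 and 28.4 ± 11.6 CPM (-0.02, interval -0.78 to 0.75, FDR 0.989), and *Egr1* was 469 ± 234 and 435 ± 140 CPM (-0.01, interval -0.60 to 0.58, FDR 0.991). *Fosb* and *Nr4a1* both had the highest value, 0.15, with intervals of -0.49 to 0.79 and -0.56 to 0.86. *Egr2* had 0.09, with the widest interval, from -1.03 to 1.21. *Junb*, *Egr4* and *Dusp1* lay between -0.01 and 0.02, with intervals inside -0.57 to 0.54. The intervals of *Fos*, *Arc* and *Egr2* hold changes of 1.5-fold in both directions. Library numbers 1 to 10 are C57BL/6 and 11 to 20 *Winnie*, so genotype and any order that these numbers may stand for cannot be told apart.

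In the same comparison, 6 of the 14 glucocorticoid-induced genes were higher in *Winnie* brains: *Plin4* (log2 fold change 1.91 ± 0.386, SE), *Sgk1* (0.98 ± 0.238), *Arrdc2* (0.70 ± 0.165), *Sult1a1* (0.67 ± 0.137), *Tsc22d3* (0.48 ± 0.0961) and *Errfi1* (0.28 ± 0.0727), with an FDR from 0.0130 to 0.0393. None of these 6 passed with *Fos*. The list was chosen with earlier results of these data known, so its count is a description only. Of the 38 other rapid immediate-early genes 1 was lower in *Winnie*, *Klf6* (-0.20 ± 0.0528, FDR 0.0369), and 0 were higher, and of the 31 transcription factors and kinases 1 was higher, *Ep300* (0.18 ± 0.0436, FDR 0.0222), a coactivator of CREB. Both counts are near the background of 2.52% of all genes.

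Within *Winnie* brains the labels and the RNA gave the same sex, so the sexes could be compared. *Fos* was 37.7 ± 5.18 CPM in the 5 samples labelled female (29.7 to 42.8) and 19.2 ± 7.92 CPM in the 5 labelled male (8.67 to 28.7), a log2 difference of 1.06 ± 0.306 (SE; p = 0.00818, FDR 0.313 by limma). *Egr2* differed by 1.37 ± 0.522, *Arc* by 0.97 ± 0.298 and *Npas4* by 0.07 ± 0.148. After adjustment 0 of 10 genes passed (background 0.0639% of genes higher in females), and 9 of 10, all but *Npas4*, had an unadjusted p under 0.05, as had 1688 of all genes in either direction. All 5 females were above all 5 males for 6 of 10 genes, *Fos*, *Egr1*, *Egr2*, *Egr4*, *Arc* and *Nr4a1*, against 0.726% of all genes. This comparison was added after seeing the data. The genes moved together from brain to brain, so these counts do not stand for separate results. The females have library numbers 11 to 15 and the males 16 to 20, so sex and any order behind these numbers cannot be told apart here. In C57BL/6 samples the labels go against the RNA, so no groups by sex were compared. There *Ddx3y* was 56.0 to 64.6 CPM in replicates 1, 2, 3 and 5, whose *Fos* was 53.7, 13.7, 59.6 and 65.0 CPM, and *Xist* was 646 to 865 CPM in the other 6, whose *Fos* ran from 11.2 to 30.7 CPM. The 3 highest *Fos* values of that genotype were thus in brains with *Ddx3y* RNA, while in *Winnie* the 5 highest were in brains with *Xist* RNA.

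**Figure D5:**
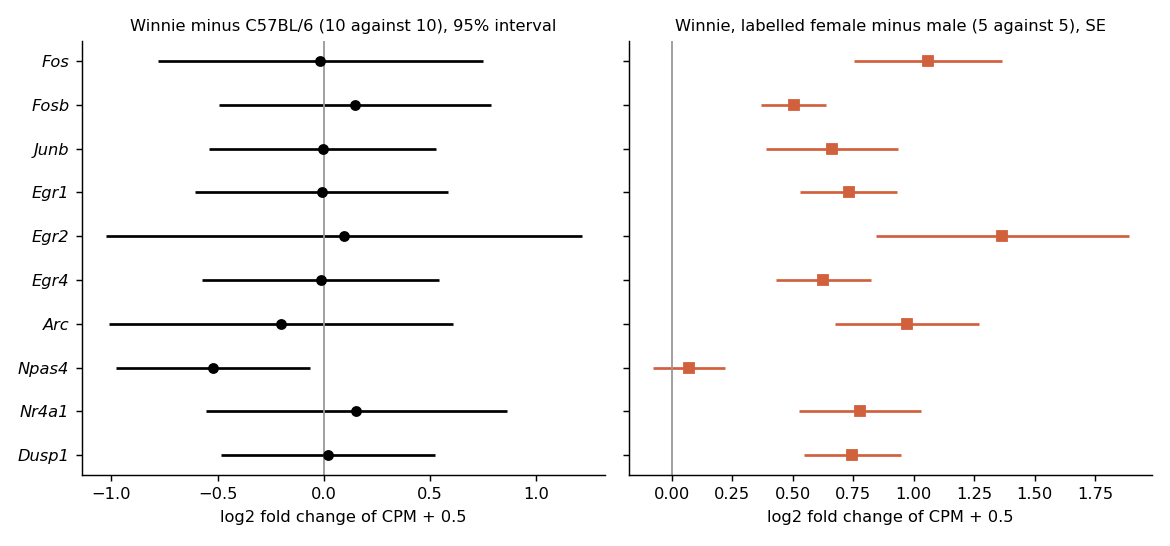
Log2 fold changes of CPM + 0.5 (horizontal axis) for the 10 genes, left for *Winnie* minus C57BL/6 (10 against 10 brains, bars: 95% interval) and right for *Winnie* samples labelled female minus male (5 against 5, bars: SE). On the left only the interval of *Npas4* lies wholly to 1 side of 0, from -0.98 to -0.07, and on the right *Egr2* is highest at 1.37 and *Npas4* lowest at 0.07.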

How the data were processed

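Brain RNA from each mouse was sequenced by the authors as paired reads of 100 bases. Per the methods and labels, RNAsik on GRCm38 and FeatureCounts gave reads per gene, and the authors deposited these as CPM, scaled to 1 total over the listed genes of each sample. The aligner, the strandedness and the filter on low counts are not given in the sources used here. Reads were recovered from the smallest step of each sample, and 100% of the values were then whole (tolerance 0.001 CPM). Intervals that follow from reads cover counting error only.

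Samples were grouped by labelled genotype. The 10 genes and all gene lists were chosen with earlier results of these data known. The model was limma 3.58.1 (R 4.3.3) on log2(CPM + 0.5), with trend, robust variances and Benjamini-Hochberg adjustment over all genes, so fold changes of low genes are understated. Covariation used the same model with *Fos* as a term. Permutation tests for single values were run with scipy 1.17.1. Genes named outside the 10 were the 10 highest and 3 lowest correlations with *Fos* among genes with a mean of at least 1 CPM, and up to 6 called genes of each list. Results were recomputed with other pseudocounts (0.1 or 1), without genes under a mean of 1 CPM, after median-ratio or quantile scaling, with labelled sex or a replicate block in the model, without each sample in turn, and from the recovered reads with edgeR 4.0.16 and DESeq2 1.42.0. Scripts were tested on simulated data. Exons came from GENCODE M21 (17128 of 17211 genes matched) and promoter sequences from RefSeq.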

Additional observations from a re-analysis of the deposited data

How the results depend on the processing

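The count of 0 of 10 immediate-early genes called between genotypes was the same under 28 alternatives and 1 with DESeq2 (*Npas4*), and 0 of the 10 passed the threshold of the study's methods under all 29. The count over all genes, 434, was 977 of the 13874 genes with an FDR in DESeq2 (7.04%), 514 with edgeR and 169 to 694 with each sample left out, lowest without C57BL/6 replicate 5 and highest without C57BL/6 replicate 10. All 10 genes had a log2 fold change below 0 in edgeR and DESeq2 (median -0.13 and -0.12, against -0.0077 in limma). There the sign turned for 4, with -0.0836 and -0.0752 for *Fosb*, -0.17 and -0.16 for *Egr2*, -0.0375 and -0.0360 for *Nr4a1* and -0.0134 and -0.0115 for *Dusp1*, and with quantile normalization 0.00095 for *Egr1*. With each sample left out it ran from -0.15 to 0.15 for *Fos*, -0.0883 to 0.13 for *Junb*, -0.13 to 0.11 for *Egr1*, -0.14 to 0.34 for *Egr2*, -0.10 to 0.11 for *Egr4*, -0.34 to -0.02 for *Arc* and -0.0725 to 0.13 for *Dusp1*. The cause was not tested.

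Of the genes that rose with *Fos*, 6 of 9 were left over both genotypes without the 2 farthest brains of each, and 2 of 9 were left in C57BL/6 and 0 in *Winnie* alone, 0 in the 7 lower C57BL/6 brains, and 3 to 7 in *Winnie* with each sample left out. The r of *Npas4* with *Fos* in *Winnie* brains was -0.36 without the 2 farthest and ran from -0.18 to 0.70 with each left out. The 3 genes with a smaller spread in *Winnie* were 0 to 5 with each sample left out. With a replicate block, 227 genes in all and 0 of the 10 were called between genotypes. With this block 5 of 9 rose with *Fos*, against 12 of all genes. The numbers share no animal, and same-numbered samples deviated together (correlation over 0.1) in 1 of 10 pairs, with 1 of 20 samples closest to its own number, so the samples share only a number.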
